A study of Mus musculus with 49 samples.

Results

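Livers of male C57BL6/N mice were compared 6 d and 4 d after 1 injection of acetaminophen (APAP) into the peritoneal cavity at 300 mg/kg. In excess, this painkiller kills hepatocytes around the central veins of the liver lobule. The comparison took all arrays titled APAP 6 day against all titled APAP 4 day, which is 10 of the 49 arrays of the series, 5 at each time, and no control array. Both groups share strain, sex, dose, a night without food before the dose and free feeding afterwards; ages, and the hour of the day at which livers were taken, are not stated in the labels. Nothing in the labels ties each numbered array to its own mouse. A p-value therefore compares a difference with the spread of numbered arrays alone, and part of that spread may be technical.

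RNA was hybridised to Affymetrix Mouse Genome 430 2.0 arrays, on which a probe set is a group of short probes against 1 transcript. Of 45101 probe sets, the 8137 measured on every 1 of the 49 arrays were used, and they represent 5976 genes. Genes such as Cdk1, Top2a, Timp1, Cpt1a, Glul and Alb were therefore not analysed here. All values are log2 expression, and a difference of 1 is 2-fold. Differences are 6 d minus 4 d ± the standard error (SE) of the fit; levels of a group are means ± SD over 5 arrays, and array values are listed from replicate 1 to replicate 5.

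The dead hepatocytes of an acetaminophen-injured liver are replaced by division of surviving hepatocytes, while macrophages clear debris and stellate cells lay down a passing matrix. Dividing and injured hepatocytes transiently make fetal, cytoskeletal and lipid-building transcripts and lower part of their adult programme, including the male-specific genes that pulses of growth hormone maintain in male mice. The step from 4 d to 6 d shows which of these transcripts were still moving late in the repair, and in which direction.

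The arrays of the 2 times were alike in overall signal, with array means of 6.12 to 6.26 and SDs of 2.41 to 2.47. The first principal component held 39.3% of the variance of the 10 arrays and separated the times; 6 d replicate 4 was the 6 d array nearest to 4 d. Replicate 1 of 4 d differed most from the other arrays of its time (SD of its differences 0.318, against 0.19 to 0.273 for the other 9 arrays). It therefore stands beside the results below: the values of the genes described most fully, and calls lost without it, are also given. The median SD of a gene was 0.167 at 4 d, 0.131 at 6 d and 0.151 at 4 d without replicate 1. As a check of the tissue, the mean of 18 secreted hepatocyte proteins lay between 12.71 and 12.87 on all 10 arrays, where the highest single value was 14.39. In all, 50 gene lists are described by their counts and medians.

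The genes that rose most included male-biased genes of hepatocytes, and those that fell most included genes of cell division, fetal liver, injured cells and lipid synthesis. In limma, 162 of 5976 genes (2.71%) were called at an adjusted p under 0.05, 62 of them higher (1.04%) and 100 lower (1.67%) at 6 d. At least 2-fold, 9 genes rose and 50 fell. All 5 arrays of 6 d lay above all 5 of 4 d for 254 genes and below for 221, together 475 genes or 7.95%. The median difference over all genes was 0.03, and 761 genes had an unadjusted p under 0.05. Without 4 d replicate 1, 128 genes were called, 57 higher and 71 lower, 113 of them among the 162. Without 6 d replicate 2, 105 were called. The split of calls moved with centring: after centring each array on its median 105 genes were higher and 112 lower. The fit of the 10 arrays alone called 379 genes and limma's array weights 593.

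**Figure D1:**
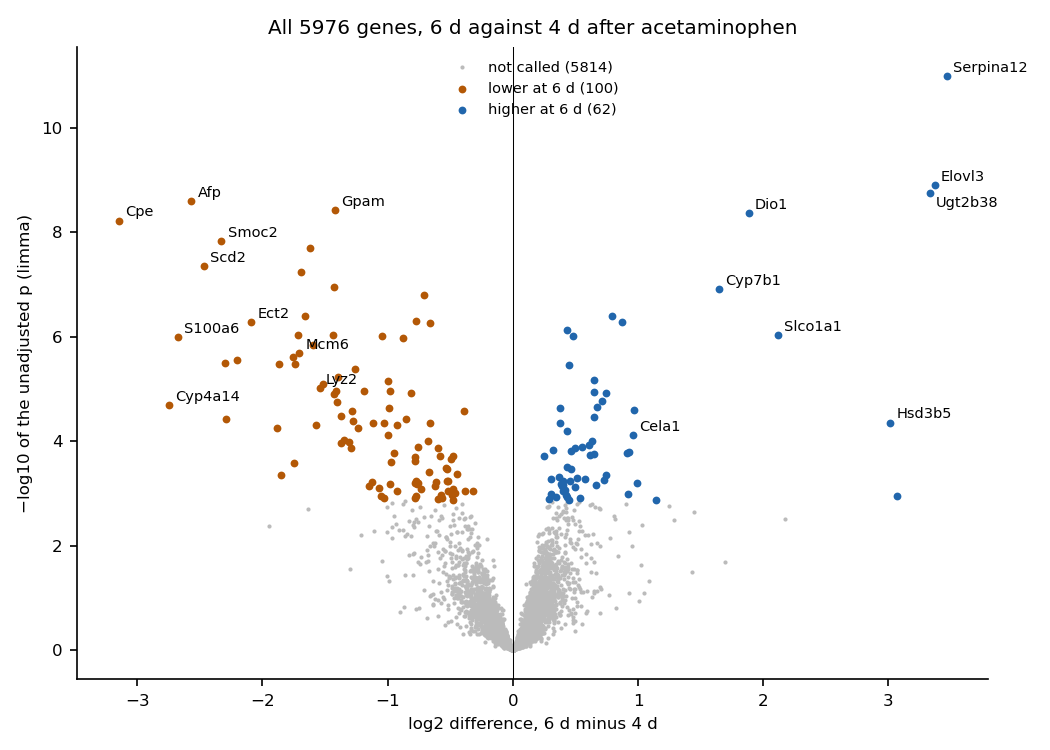
Each point is 1 of 5976 genes, placed by its log2 difference between 6 d and 4 d (x axis, positive for higher at 6 d) and by −log10 of its unadjusted p in limma (y axis). Blue points are the 62 genes called higher, brown points the 100 called lower and grey points the rest; Serpina12 stands farthest to the right and Cpe farthest to the left.

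Several of the largest rises were of genes that hepatocytes of adult male mice express. Hsd3b5, a ketosteroid reductase of male mouse liver, measured 8.72, 8.72, 8.50, 9.32 and 6.63 at 4 d and 11.75, 11.32, 11.25, 11.09 and 11.56 at 6 d. Every 6 d array lay above every 4 d array, and the 4 d arrays were scattered, with replicate 5 lowest. The difference was 3.02 ± 0.66 (8.08-fold; adjusted p = 0.0039; 3.10 without 4 d replicate 1). Elovl3, which elongates very long fatty acids and is male-biased in liver, measured 9.62, 7.46, 7.03, 7.65 and 6.06 at 4 d and 11.73, 11.28, 10.86, 10.27 and 10.52 at 6 d. Replicate 1 was the highest 4 d array but still below the lowest at 6 d. The rise of Elovl3 was 3.37 ± 0.43 (10.3-fold; adjusted p = 3.47e-06; 3.88 without that array).

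Slco1a1, a transporter that takes organic anions and bile acids into hepatocytes, measured 8.85, 9.11, 8.62, 9.66 and 7.82 at 4 d and 11.11, 10.82, 10.86, 10.82 and 11.05 at 6 d. The 6 d values were tightly grouped (SD 0.14) and those at 4 d were not (SD 0.67). Its rise was 2.12 ± 0.36 (adjusted p = 0.000221; 2.13 without 4 d replicate 1). Cyp7b1, the oxysterol hydroxylase of the alternative bile acid pathway, rose from 10.91 to 12.56, a difference of 1.65 ± 0.26 (adjusted p = 5.66e-05; 1.59 without 4 d replicate 1). These 4 were the called members among 16 measured genes of the growth hormone and sex-biased list, none of which was called lower. The list's median was 0.46 beside 0.03 over all genes, and 14 of 16 differences were positive. Its mean was 7.90 to 8.50 on the 4 d arrays and 8.75 to 9.09 on those of 6 d, with no overlap. In the leave-one-out fits 4 or 5 members were called higher and 0 lower. In the fit of the 10 arrays alone 6 were called higher and 1 lower, and with array weights 5 and 1. The lowest difference on the list was −1.64, of a gene not called in the main fit.

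The growth hormone receptor itself and its signalling genes did not pass the test. Ghr differed by 0.19 ± 0.24 (adjusted p = 0.809) and Igf1, the growth factor it controls, by 0.15 ± 0.14 (adjusted p = 0.728). Stat5b, the transcription factor that carries the pulsatile signal, was at 0.63 ± 0.19 (adjusted p = 0.0542) and the feedback inhibitor Socs2 at 1.01 ± 0.63 (adjusted p = 0.536). Cyp2b9, a female-biased P450, was at −0.56 ± 0.32 (adjusted p = 0.5).

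Serpina12 had the largest rise of all genes when each was read from its brightest probe set. This gene encodes vaspin, a secreted protease inhibitor, and measured 7.65, 7.07, 8.13, 7.65 and 6.66 at 4 d and 11.19, 10.99, 10.90, 10.09 and 11.32 at 6 d. The lowest 6 d array, replicate 4, was well above the highest 4 d array, and the difference was 3.47 ± 0.36 (11.1-fold; adjusted p = 5.96e-08; 3.52 without 4 d replicate 1; 2.46 as the mean of its probe sets). Ugt2b38, a glucuronosyltransferase, measured 4.89, 6.39, 6.71, 6.84 and 6.16 at 4 d and 9.57, 9.41, 9.96, 9.10 and 9.59 at 6 d. Here 4 d replicate 1 was the lowest array, and the rise of 3.33 ± 0.43 became 3.00 without it (adjusted p = 3.47e-06 with all arrays). Dio1, the deiodinase that forms active thyroid hormone, measured 7.62, 7.35, 8.17, 8.22 and 8.02 at 4 d and 8.79, 10.01, 10.32, 9.79 and 9.90 at 6 d, where replicate 1 was lowest. It rose by 1.88 ± 0.25 (adjusted p = 4.3e-06; 1.82 without 4 d replicate 1). Moxd1, a monooxygenase-like protein named after its values were seen because the times overlapped, measured 3.97, 4.58, 5.34, 4.12 and 4.98 at 4 d and 7.63, 8.66, 9.10, 4.53 and 8.39 at 6 d. Its 6 d replicate 4 lay within the 4 d range, and its difference was 3.07 ± 0.87 (adjusted p = 0.0438), a call lost in 9 of 10 leave-one-out fits (adjusted p up to 0.159).

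Set against the rest of the series, these genes did not all start from the same place. Mean Slco1a1 was 10.60 in control livers, 7.84 at 1 d, 8.81 at 4 d and 10.93 at 6 d, with the 4 d mean below and the 6 d mean near that of controls. Hsd3b5 stood at 8.72 in controls, with an SD of 1.27, and had means of 5.39 at 1 d, 11.39 at 6 d, 11.59 at 8 d and 11.73 at 16 d. Serpina12 was 9.20 in controls and 8.52 at 2 d; of the 10 groups, its mean was lowest at 4 d and, from 6 d on, above the control mean (11.02 at 8 d and 11.03 at 16 d). Control arrays are not part of the comparison of 6 d with 4 d. They entered the choice of probe sets, which used all 49 arrays, and the alternative fit of all 49 arrays. Whether control mice had been starved is not stated in the labels.

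**Figure D2:**
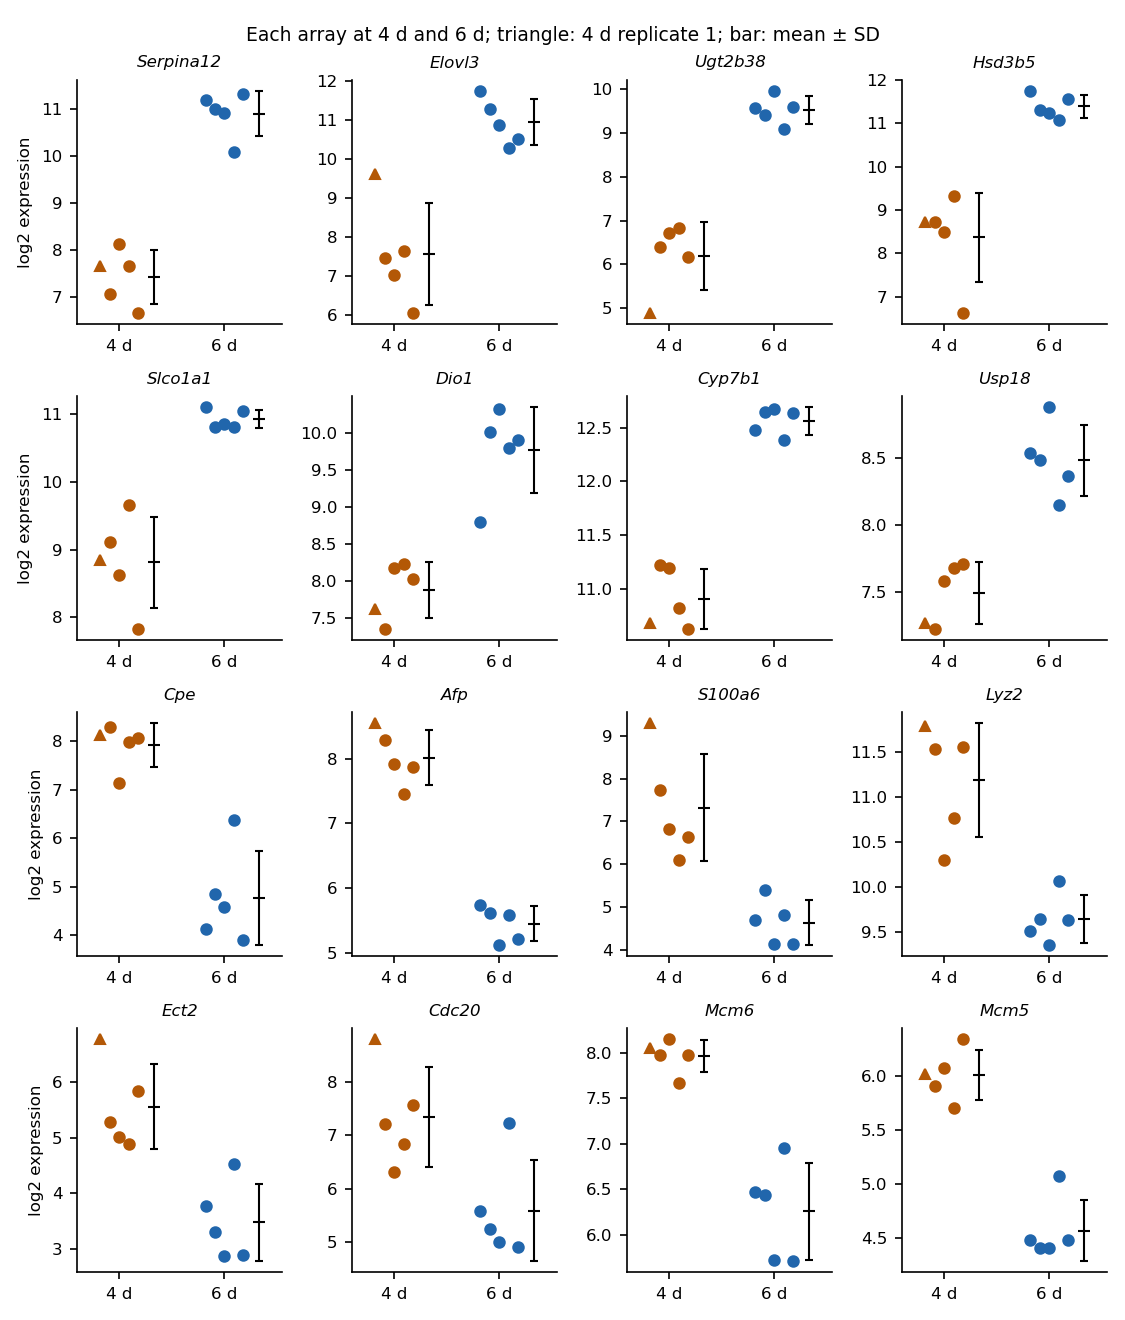
Log2 expression of 16 genes on each array of 4 d (brown) and 6 d (blue), each panel with its own y axis; the triangle is 4 d replicate 1 and the black bar the mean ± SD of 5 arrays. The upper 8 genes rose with no overlap between the times; of the lower 8, which fell, only Cdc20 overlapped, through 6 d replicate 4 at 7.22.

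**Figure D3:**
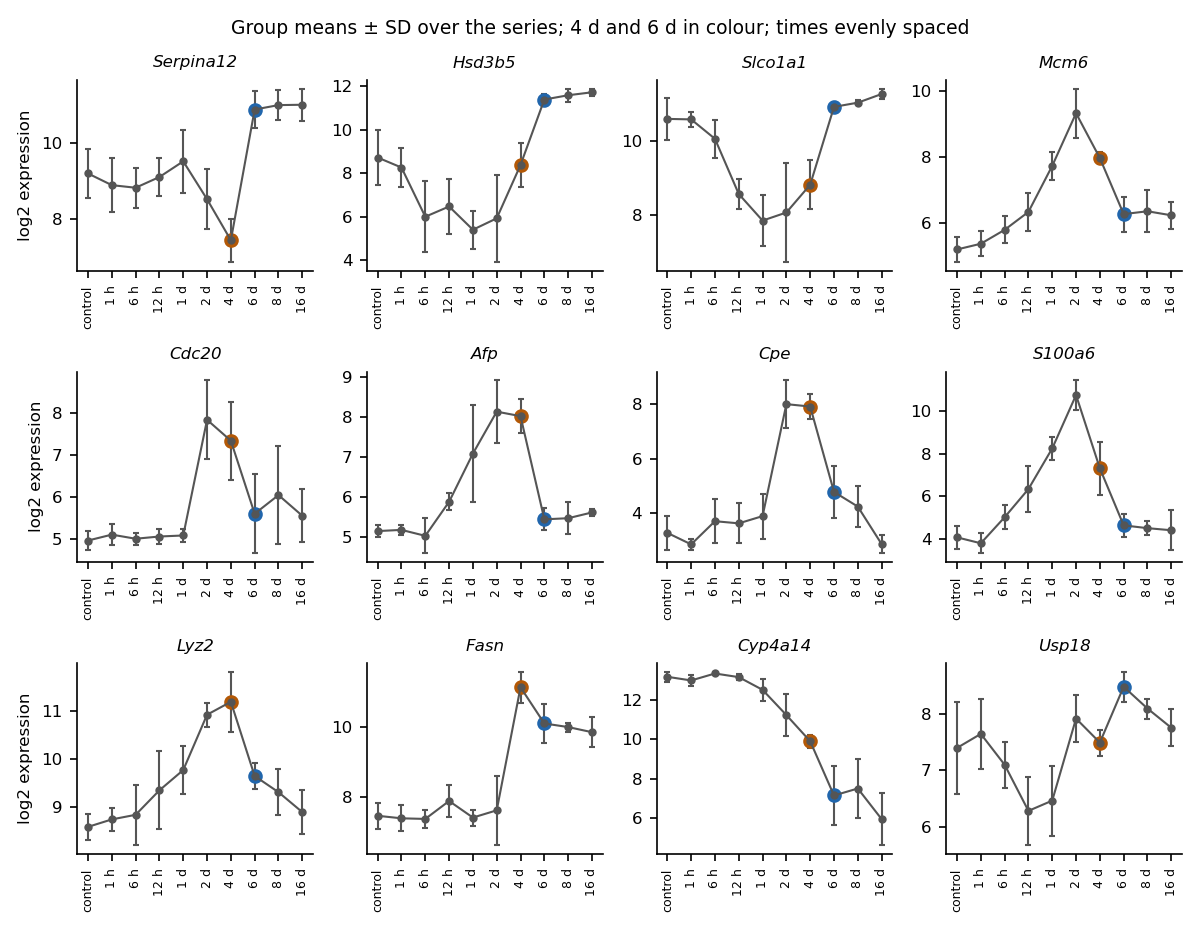
Mean log2 expression ± SD of 12 genes in the control group and at 9 times after the dose, with the groups spaced evenly and not by time; 4 d is brown and 6 d blue. Group size is 5 arrays, with 4 at 6 h. Mcm6, Cdc20, Afp, Cpe and S100a6 are highest at 2 d, Fasn is highest at 4 d, and Slco1a1 is lowest at 1 d.

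Of 19 measured interferon-response genes 4 rose and 0 fell, with a list median of 0.43, and the list's mean on every 6 d array (7.44 to 7.78) lay above that of every 4 d array (6.95 to 7.38). Usp18, the protease that removes the ubiquitin-like Isg15, measured 7.27, 7.22, 7.58, 7.68 and 7.71 at 4 d and 8.54, 8.48, 8.88, 8.15 and 8.37 at 6 d. The groups did not overlap, and the rise was 0.99 ± 0.27 (adjusted p = 0.0308). Rsad2, the antiviral enzyme viperin, rose by 0.92 ± 0.26 (adjusted p = 0.0427) and the interferon transcription factors Irf7 and Irf9 by 0.73 ± 0.19 (adjusted p = 0.0282) and 0.62 ± 0.15 (adjusted p = 0.0114). The chemokines Cxcl9 and Cxcl10, which attract T cells, were at 1.25 ± 0.37 (adjusted p = 0.0576) and 1.43 ± 0.64 (adjusted p = 0.318) and were not called. The interferon-induced GTPases Gbp2b and Ifi47, outside the list, rose by 0.97 ± 0.20 (adjusted p = 0.00266; 0.96 without 4 d replicate 1) and 0.93 ± 0.22 (adjusted p = 0.0108; 0.90 without it).

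The calls of all 4 depended on single arrays. Usp18 lost its call without 4 d replicate 1, 2 or 3 or 6 d replicate 1, 2 or 3 (differences 0.89 to 1.01, adjusted p up to 0.113). Irf9 lost it without 6 d replicate 3 (adjusted p = 0.0646). Irf7 lost it without 4 d replicate 1, 2 or 3 or 6 d replicate 2, 3 or 4 (differences 0.65 to 0.73, adjusted p up to 0.0873), and Rsad2 lost it in 9 of the 10 leave-one-out fits, all except that without 4 d replicate 4 (differences 0.86 to 0.96, adjusted p up to 0.114). The list count was 1 without 4 d replicate 1, 0 without 6 d replicate 3 and 10 in the fit of the 10 arrays alone. Mean Usp18 was 7.40 in controls and 7.92 at 2 d, and the 6 d mean of 8.48 was above both. T, NK and B cell markers gave 0 calls among 14, and 0 of these had an unadjusted p under 0.05; the list's mean was 4.40 to 4.58 at 4 d and 4.52 to 4.64 at 6 d. The part of lymphocyte or other cell numbers in the interferon result was not tested.

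Some plasma proteins made by hepatocytes rose. Mbl1, a mannose-binding lectin of the complement system, measured 10.29, 10.13, 10.23, 10.38 and 10.44 at 4 d and 10.97, 11.08, 10.92, 11.24 and 10.82 at 6 d. It rose by 0.71 ± 0.14 with no overlap (adjusted p = 0.002; 0.71 without 4 d replicate 1). Among 24 complement and coagulation genes 4 rose and 0 fell (median 0.06): besides Mbl1 these were C1ra, a protease of the first complement component (0.43 ± 0.11, adjusted p = 0.0181), the fibrinogen chain Fgg (0.25 ± 0.06, adjusted p = 0.0119) and the protease inhibitor Serping1 (0.29 ± 0.08, adjusted p = 0.0474). Serping1 overlapped between the times and had an adjusted p = 0.236 without 4 d replicate 1; C1ra lost its call without 4 d replicate 1 or 3 or 6 d replicate 2 (differences 0.39 to 0.41, adjusted p up to 0.0686) and Fgg without 6 d replicate 2 (0.22, adjusted p = 0.0612). The list had 1 call without 6 d replicate 2 and 2 without 4 d replicate 1. Of 14 acute phase genes 2 rose, Fgg and the pentraxin Crp (0.43 ± 0.12, adjusted p = 0.0457), and Crp lost its call in 9 of 10 leave-one-out fits (adjusted p up to 0.141). Saa1, serum amyloid A, was at 2.18 ± 0.69 and was not called (adjusted p = 0.0834). Of 18 secreted hepatocyte proteins 1 rose, Itih1, which binds hyaluronan (0.38 ± 0.08, adjusted p = 0.0039; 0.36 without 4 d replicate 1), and 2 fell, Apoa4 and Apoc2.

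Genes of protein folding in the endoplasmic reticulum had mostly positive differences that did not pass the test. Of 20 measured genes of the unfolded protein response, 19 differences were positive (median 0.29), but Calr, the chaperone calreticulin, was the only call (0.53 ± 0.15, adjusted p = 0.0467). It lost that call in 9 of 10 leave-one-out fits (adjusted p up to 0.157). The mean of the list did not overlap, at 9.87 to 10.21 on the 4 d arrays and 10.24 to 10.66 on those of 6 d. Hspa5, the chaperone BiP, was at 0.36 ± 0.14 (adjusted p = 0.206) and Xbp1, a transcription factor of the response, at 0.29 ± 0.17 (adjusted p = 0.496). Malat1, a nuclear noncoding RNA, was among the 12 largest rises at 1.15 ± 0.33, yet its adjusted p of 0.0498 exceeded 0.05 in 9 of 10 leave-one-out fits.

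Genes of mitosis had the lowest median of the 50 lists. Of 19 measured members 10 fell and 0 rose, with a median of −0.93, and 17 differences were negative. Ect2, the exchange factor that starts cytokinesis, measured 6.77, 5.28, 5.02, 4.89 and 5.84 at 4 d and 3.77, 3.30, 2.87, 4.53 and 2.88 at 6 d. The times did not overlap, although 6 d replicate 4 was high and 4 d replicate 1 highest of all. The 6 d values of 2.87 and 2.88 lie among the lowest 10% of all values, those under 3.24, where a difference can be understated. Ect2 fell by 2.09 ± 0.35 (4.26-fold; adjusted p = 0.000164; −1.79 without 4 d replicate 1). Cyclin A2, Ccna2, which drives S phase and entry into mitosis, measured 8.16, 7.26, 6.62, 6.56 and 7.02 at 4 d and 5.38, 5.16, 4.69, 6.55 and 5.05 at 6 d. The highest 6 d array and the lowest 4 d array differed only in the second decimal. Its fall was −1.76 ± 0.32 (adjusted p = 0.000462; −1.50 without 4 d replicate 1).

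Cdc20, which activates the anaphase-promoting complex, measured 8.79, 7.21, 6.31, 6.83 and 7.56 at 4 d and 5.58, 5.25, 5.00, 7.22 and 4.92 at 6 d. Replicate 4 of 6 d lay inside the 4 d range and stood apart from the other 6 d arrays. The difference was −1.74 ± 0.43 (adjusted p = 0.0151), and the call was lost without 4 d replicate 1 or 6 d replicate 2, 3 or 5 (differences −1.66 to −1.38, adjusted p up to 0.0917). The microtubule regulator Stmn1 fell by 1.74 ± 0.32 (adjusted p = 0.000563). Genes of the spindle and of cytokinesis were called too, with Nusap1 at −1.57 ± 0.35 (adjusted p = 0.00418), Prc1 at −1.24 ± 0.27 (adjusted p = 0.00461) and Racgap1 at −1.12 ± 0.24 (adjusted p = 0.0039). A further, dimmer probe set of Nusap1, with a mean of 3.34 over all arrays, gave −0.17 (adjusted p = 0.465 in limma over all probe sets). Tacc3 and Mad2l1, of the spindle and its checkpoint, were at −1.28 ± 0.28 (adjusted p = 0.00389) and −1.19 ± 0.24 (adjusted p = 0.00145), and the kinase Nek2 at −0.62 ± 0.17 (adjusted p = 0.0319), a call lost in 7 of 10 leave-one-out fits (adjusted p = 0.132 without 4 d replicate 1). Not called were, among others, Cks2 (−0.58 ± 0.18, adjusted p = 0.078), Bub1b (−0.39 ± 0.16, adjusted p = 0.284) and Ccnf (0.67 ± 0.36, adjusted p = 0.461).

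The list's mean expressed the same spread between arrays. It was 7.02 on 4 d replicate 1 and 5.88 to 6.21 on the other 4 d arrays, and 6.01 on 6 d replicate 4 and 5.09 to 5.33 on the other 6 d arrays. Without 4 d replicate 1 the count was 8 and the median −0.72; without 6 d replicate 4 it was 13. In the fit of the 10 arrays alone 7 members were called. Of the 10 called members 5 have an unmarked probe set, and 5 of these 5 were called where only such probe sets were used.

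Mitosis had the largest share of called members of the 50 lists, so the promoters of its called genes are shown. RefSeq promoter windows of GRCm38.p6, from 250 bases before to 50 after an annotated start, were found for 8 of the 10 called genes. They were searched on both strands for the CHR element (TTTGAA), which the complexes that silence and activate late cell cycle genes bind, the CCAAT box (CCAAT), bound by NF-Y, and the E2F site (TTTCGCGC, TTTGGCGC, TTTCCCGC or TTTGCCGC); no match printed here overlaps another. The 150 bases before the most upstream start of Ect2 (chr3:27153879-27154028, minus strand), of Cdc20 (chr4:118437344-118437493, minus strand) and of Nek2 (chr1:191821323-191821472, plus strand) are printed on the gene's strand, with CHR and CCAAT matches in capitals, because they hold both motifs in either order or only one of them.
Ect2: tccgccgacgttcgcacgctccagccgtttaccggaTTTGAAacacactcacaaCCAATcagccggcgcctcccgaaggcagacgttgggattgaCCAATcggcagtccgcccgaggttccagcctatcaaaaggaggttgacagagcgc
Cdc20: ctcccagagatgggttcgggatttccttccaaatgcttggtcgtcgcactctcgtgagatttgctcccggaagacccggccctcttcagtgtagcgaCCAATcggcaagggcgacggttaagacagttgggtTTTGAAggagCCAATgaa
Nek2: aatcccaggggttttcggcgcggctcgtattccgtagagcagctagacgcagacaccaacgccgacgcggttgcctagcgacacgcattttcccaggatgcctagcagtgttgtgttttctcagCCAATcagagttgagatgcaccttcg
With −1 as the base before the start, the CHR match ended at −109 in Ect2 and at −13 in Cdc20, where a CCAAT match ended at −49 upstream of it and another at −4. Nek2, the called mitosis gene with the smallest fall, had a CCAAT match ending at −22 and no CHR match. Over the 8 genes a CCAAT box was present in 5 and a CHR in 4, against 41.06% and 20.23% of all 27025 genes with a window. Of the 9 list members with a window that were not called, 5 had a CCAAT box and 6 had a CHR match. The E2F site, the TATA box (TATAAA), the sterol element (TCACNCCAC) and the DR1 repeat of nuclear receptors had matches in 0 of the 8 and in 2.6%, 15.67%, 1.44% and 0.45% of all genes.

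Of 29 measured genes of DNA replication 8 fell and 0 rose, the median was −0.58, and 28 differences were negative. Mcm6, a subunit of the replicative helicase, measured 8.05, 7.97, 8.15, 7.67 and 7.98 at 4 d and 6.48, 6.44, 5.72, 6.95 and 5.71 at 6 d, with the 4 d arrays close together. It fell by 1.71 ± 0.31 (3.26-fold; adjusted p = 0.000411; −1.68 without 4 d replicate 1). Mcm5, another subunit, measured 6.01, 5.90, 6.07, 5.70 and 6.33 at 4 d and 4.48, 4.41, 4.41, 5.07 and 4.48 at 6 d; replicate 4 was again the highest 6 d array. The difference of Mcm5 was −1.43 ± 0.29 (adjusted p = 0.00152; −1.43 without 4 d replicate 1). Mcm4 was at −1.29 ± 0.30 (adjusted p = 0.00932) and Mcm3 at −1.60 ± 0.28 (adjusted p = 0.000292), but the Mcm3 probe set may cross-hybridise and the gene's unmarked, dimmer probe set gave −0.15 (adjusted p = 0.644).

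Beyond the helicase, the DNA ligase Lig1 fell, at −0.998 ± 0.19 (adjusted p = 0.00103), as did the ribonucleotide reductase subunit Rrm1, at −0.81 ± 0.16 (adjusted p = 0.00145), and Uhrf1, which recruits the maintenance DNA methyltransferase, at −0.78 ± 0.22 (adjusted p = 0.0467); Uhrf1 lost its call in 9 of 10 leave-one-out fits, with adjusted p up to 0.171. A further, dimmer probe set of Uhrf1 gave −1.76 (adjusted p = 0.000274 in limma over all probe sets). Pcna, the sliding clamp, was at −0.52 ± 0.14 (adjusted p = 0.0379), a call lost in 9 of 10 leave-one-out fits. Hells, a chromatin remodeller of dividing cells outside the list, measured 5.51, 5.05, 5.78, 4.65 and 5.57 at 4 d and 3.52, 3.50, 3.21, 3.91 and 3.08 at 6 d and fell by 1.87 ± 0.34 (adjusted p = 0.000563; −1.82 without 4 d replicate 1). Some 6 d values of Hells lie among the lowest 10% of all values, those under 3.24, where a difference can be understated. Rrm2 (−1.001 ± 0.34, adjusted p = 0.119) and Tk1 (−0.91 ± 0.31, adjusted p = 0.115), enzymes of nucleotide supply, were below 4 d on all 6 d arrays without being called. The list count was 6 or 7 in every leave-one-out fit and 16 in the fit of the 10 arrays alone.

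Regulators of the cell cycle that do not themselves copy or divide DNA gave 0 calls among 21 in limma, with 6 at an unadjusted p under 0.05 and 5 called lower in the fit of the 10 arrays alone. Cyclin D1, Ccnd1, which takes hepatocytes into the cycle, measured 8.73, 8.51, 9.73, 8.92 and 9.35 at 4 d and 7.89, 8.12, 8.12, 8.47 and 7.43 at 6 d; all 6 d arrays were lower, and the difference of −1.04 ± 0.43 had an adjusted p = 0.264. Cdkn1a, the inhibitor p21, was at 0.025 ± 0.40 with an adjusted p = 0.989. Mean Mcm6 had been 5.18 in controls and 9.33 at 2 d, and after 6.26 at 6 d it was 6.34 at 8 d and 6.22 at 16 d. Cdc20 went from 4.96 in controls to 7.84 at 2 d and was 6.04 ± 1.17 at 8 d.

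The fetal liver list held 1 of the largest falls. Afp, alpha-fetoprotein, measured 8.55, 8.30, 7.92, 7.45 and 7.87 at 4 d and 5.74, 5.61, 5.11, 5.58 and 5.20 at 6 d. No arrays of the 2 times overlapped. Afp fell by 2.57 ± 0.33 (5.93-fold; adjusted p = 3.71e-06; −2.44 without 4 d replicate 1). As the mean of its probe sets, the difference of Afp was −3.30. On the brightest probe set, its mean level was 5.16 in controls and 8.13 at 2 d. Ly6d, a surface protein counted in both the fetal and the biliary list, fell by 1.88 ± 0.42 (adjusted p = 0.00467; −1.79 without 4 d replicate 1), and was the only call among 8 biliary markers. Of 10 fetal genes 2 fell and 0 rose (median −0.14), and both calls were present in all leave-one-out fits. Epcam and Krt19, the defining biliary markers, were at −0.075 ± 0.19 (adjusted p = 0.92) and −0.26 ± 0.15 (adjusted p = 0.486).

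Cpe had the largest fall of all genes when each was read from its brightest probe set. It encodes carboxypeptidase E, which trims hormone precursors, and measured 8.13, 8.29, 7.14, 7.98 and 8.07 at 4 d and 4.14, 4.85, 4.58, 6.38 and 3.90 at 6 d. Replicate 4 of 6 d stood between the other 6 d arrays and the 4 d arrays. The fall was 3.15 ± 0.43 (8.87-fold; adjusted p = 5.07e-06; −3.10 without 4 d replicate 1). Cpe was 3.26 in controls, 3.88 at 1 d and 8.01 at 2 d, and its mean returned to 2.85 at 16 d. Smoc2, a secreted matrix-associated protein, fell by 2.33 ± 0.33 (adjusted p = 1.08e-05; −2.15 without 4 d replicate 1). Sult1e1, which sulfates and so inactivates oestrogens, fell by 2.29 ± 0.49 (adjusted p = 0.0036; −2.08 without 4 d replicate 1), and Abcd2, a fatty acid carrier of peroxisomes, fell by 2.20 ± 0.40 (adjusted p = 0.000525; −2.35 without it). D17H6S56E-5 changed by −2.30 ± 0.42 (adjusted p = 0.000563; −2.001 without 4 d replicate 1), with 6 d replicate 4 at 7.69 above the other 6 d arrays.

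Among 22 cytoskeleton, annexin and S100 genes 3 fell and 0 rose (median −0.18). Of these 3 called members 0 have an unmarked probe set, so their calls could not be checked where only such probe sets were used. S100a6, a calcium-binding protein of proliferating and injured cells, measured 9.28, 7.74, 6.82, 6.11 and 6.65 at 4 d and 4.70, 5.40, 4.16, 4.82 and 4.14 at 6 d, with 4 d replicate 1 highest. It fell by 2.68 ± 0.46 (6.4-fold; adjusted p = 0.000221), and the difference was −2.19 without that array. Lgals1, galectin 1, fell by 1.51 ± 0.29 (adjusted p = 0.00115; −1.43 without 4 d replicate 1). Anxa2, annexin A2, was at −1.15 ± 0.31 (adjusted p = 0.0319) and lost its call without 4 d replicate 1, 2 or 5 or 6 d replicate 1, 3 or 5 (differences −1.18 to −0.90, adjusted p up to 0.143). The tubulin Tubb6 was at −0.79 ± 0.36 (adjusted p = 0.34) and −0.49 without 4 d replicate 1, and was not called.

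Some macrophage transcripts fell. Lyz2, lysozyme of monocytes and macrophages, measured 11.79, 11.52, 10.30, 10.77 and 11.55 at 4 d and 9.52, 9.65, 9.36, 10.07 and 9.63 at 6 d. All 6 d arrays were lower, while 4 d replicate 3 came near them. Lyz2 fell by 1.54 ± 0.30 (2.91-fold; adjusted p = 0.00137; −1.39 without 4 d replicate 1). Chil3, a secreted lectin of alternatively activated macrophages, measured 7.27, 5.03, 3.89, 4.35 and 5.77 at 4 d and 3.02, 3.87, 3.33, 3.87 and 2.95 at 6 d, and several 6 d values lie near background. Its difference of −1.85 ± 0.48 (adjusted p = 0.0246) lost its call without 4 d replicate 1 or 5 or 6 d replicate 1, 3 or 5 (differences −1.83 to −1.35, adjusted p up to 0.135). Laptm5, a lysosomal protein of blood cells, was at −0.62 ± 0.16 (adjusted p = 0.0293, and adjusted p = 0.108 without 4 d replicate 1). It lost its call in 7 of 10 leave-one-out fits (adjusted p up to 0.118).

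Of 19 monocyte and macrophage markers these 3 fell and 0 rose (median −0.29). Only 1 call, Lyz2, was left without 4 d replicate 1 or 5 or 6 d replicate 1, 3 or 5. The list's mean ranged from 6.63 to 7.62 over the 4 d arrays and from 6.54 to 7.05 over those at 6 d, so the times overlapped. Pan-macrophage genes did not pass the test, with Csf1r at −0.29 ± 0.20 (adjusted p = 0.589) and C1qa at 0.14 ± 0.24 (adjusted p = 0.878), and the monocyte receptor Ccr2 was at −0.64 ± 0.23 (adjusted p = 0.166). In whole liver, fewer cells of a type and less RNA per cell cannot be told apart. Trem2, a lipid-sensing receptor, and the protease Ctsb were the 2 of 9 lipid-associated macrophage markers that fell (list median 0.01). Trem2 was at −0.78 ± 0.13 (adjusted p = 0.000164; −0.72 without 4 d replicate 1) on a probe set marked for cross-hybridisation, and at −0.31 on its unmarked one (adjusted p = 0.611). Ctsb, at −0.32 ± 0.09 (adjusted p = 0.0379), lost its call in 7 of 10 leave-one-out fits, and Lpl, lipoprotein lipase, was at 0.012 ± 0.25 (adjusted p = 0.991). Kupffer cell markers gave 0 calls among 4 and neutrophil markers 0 among 9, with 0 members of either list at an unadjusted p under 0.05.

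Lysosomal genes had 3 of 20 members lower, Laptm5, Ctsb and Psap, the precursor of the saposins (−0.53 ± 0.13, adjusted p = 0.0184), and 0 without 4 d replicate 1, without 4 d replicate 5 and without 6 d replicate 2 or 3. Of 32 fibrillar matrix and myofibroblast genes 3 fell, 0 rose and 30 differences were negative (median −0.28). Lum, the collagen-binding proteoglycan lumican, measured 9.78, 9.44, 8.78, 9.39 and 9.44 at 4 d and 7.98, 7.82, 7.88, 8.24 and 7.90 at 6 d and did not overlap. It fell by 1.40 ± 0.27 (adjusted p = 0.000923; −1.29 without 4 d replicate 1). Col1a2, a chain of type I collagen, was at −0.98 ± 0.27 (adjusted p = 0.031) and the proteoglycan Bgn at −0.52 ± 0.14 (adjusted p = 0.0289); both lost their calls without 4 d replicate 1 (adjusted p = 0.129 and 0.0742) and in 4 or 5 of the other 9 leave-one-out fits. Acta2, smooth muscle actin of myofibroblasts, was at −0.14 ± 0.24 (adjusted p = 0.874) and at 0.026 without 4 d replicate 1. The list means were 5.88 to 6.29 at 4 d and 5.64 to 5.78 at 6 d.

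Some lipid synthesis genes fell from high 4 d levels. Gpam, which starts triglyceride synthesis in mitochondria, measured 12.71, 11.78, 12.16, 12.09 and 12.03 at 4 d and 11.02, 10.35, 10.48, 10.50 and 11.30 at 6 d. No arrays overlapped, and 4 d replicate 1 was highest. Gpam fell by 1.42 ± 0.19 (2.68-fold; adjusted p = 4.3e-06; −1.29 without 4 d replicate 1). Scd2, a desaturase that makes monounsaturated fatty acids, measured 8.07, 7.44, 9.83, 7.65 and 8.42 at 4 d, where replicate 3 was highest, and 6.02, 5.52, 6.11, 5.77 and 5.66 at 6 d. Its fall was −2.47 ± 0.37 (5.53-fold; adjusted p = 2.67e-05; −2.52 without 4 d replicate 1; −1.54 as the mean of its probe sets).

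Of 22 fatty acid and triglyceride synthesis genes 5 fell and 1, Elovl3, rose, with a median of −0.31. The fatty acid synthase Fasn measured 11.88, 10.91, 10.76, 10.94 and 11.16 at 4 d and 10.34, 9.67, 9.66, 9.87 and 10.94 at 6 d, overlapping through 6 d replicate 5. Fasn was at −1.03 ± 0.30 (adjusted p = 0.0471), and the acetyl-CoA synthetase Acss2 at −0.92 ± 0.26 (adjusted p = 0.0379). Each lost its call in 8 of 10 leave-one-out fits, with adjusted p = 0.172 and 0.136 without 4 d replicate 1. Pgd, of the pentose phosphate pathway, fell by 0.76 ± 0.21 (adjusted p = 0.0308), but lost its call in 5 of 10 leave-one-out fits (adjusted p = 0.156 and a difference of −0.55 without 4 d replicate 1). Thrsp, a lipogenic regulator, was at −1.002 ± 0.47 (adjusted p = 0.351), and Scd1, among the brightest genes at 13.76 and 13.52, at −0.24 ± 0.28 (adjusted p = 0.798). Scd1 was lower on all 6 d arrays, at levels near the upper limit of the signal, where a difference can be understated. As the mean of its probe sets its difference was −0.59 (adjusted p = 0.453 in limma). Without 4 d replicate 1 the list had 2 members lower and 2 higher; in the fit of the 10 arrays alone it had 9 lower. Mean Fasn had been 7.46 in controls and 7.62 at 2 d, and was 9.99 at 8 d and 9.85 at 16 d, whereas Gpam, at 10.54 in controls, was 10.77 at 16 d.

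All 11 cholesterol synthesis genes had negative differences (median −0.42), and Lss, lanosterol synthase, was the 1 that fell, from 9.91 to 8.57. Its difference was −1.35 ± 0.31 (adjusted p = 0.00738; −1.33 without 4 d replicate 1), and −0.68 on its unmarked probe set. Sqle, Fdps and Idi1, of the same pathway, were at −0.65 ± 0.37 (adjusted p = 0.49), −0.52 ± 0.36 (adjusted p = 0.592) and −0.40 ± 0.58 (adjusted p = 0.851) with no overlap between the arrays of 4 d and 6 d. The list's mean did not overlap either (9.98 to 10.31 against 9.43 to 9.88), and 4 members were called in the fit of the 10 arrays alone. The fit of 44 arrays tests each difference against the spread within all 9 treated groups.

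Fatty acid oxidation under PPAR alpha, the receptor that senses fatty acids, had 2 of 19 members lower and 0 higher (median −0.11). Cyp4a14, a fatty acid hydroxylase, measured 10.21, 9.46, 10.01, 9.67 and 10.13 at 4 d and 7.53, 5.87, 6.41, 9.57 and 6.37 at 6 d. Replicate 4 of 6 d lay within the 4 d range and the others below it. The difference was −2.74 ± 0.57 (adjusted p = 0.00234; −2.67 without 4 d replicate 1). The mean had been 13.16 in controls and was 5.95 at 16 d. Crat, carnitine acetyltransferase, was at −1.05 ± 0.30 (adjusted p = 0.0446), a call lost in 9 of 10 leave-one-out fits. Vnn1 and Pdk4, commonly used PPAR alpha targets, were at −0.35 ± 0.45 (adjusted p = 0.832) and −0.75 ± 0.52 (adjusted p = 0.589). Apoa4 and Apoc2 are apolipoproteins secreted with lipid. Apoa4 fell by 1.41 ± 0.28 (adjusted p = 0.00145, and −1.27 without 4 d replicate 1). Apoc2 fell by 0.53 ± 0.13 (adjusted p = 0.0196, and adjusted p = 0.0657 without 4 d replicate 1). The call of Apoc2 was lost without 4 d replicate 1 or 2 or 6 d replicate 5 (adjusted p up to 0.0717).

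**Figure D4:**
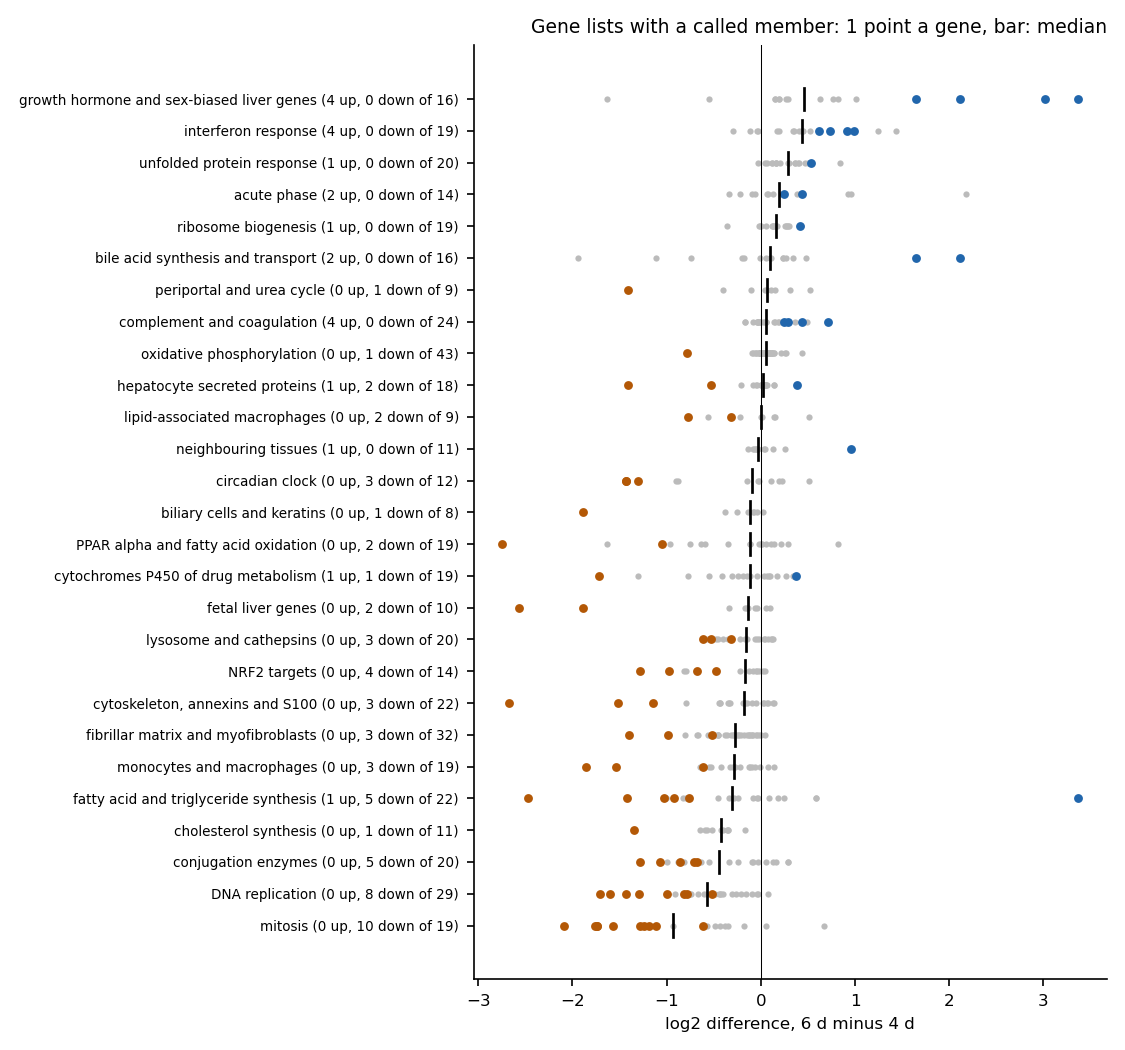
Log2 differences between 6 d and 4 d (x axis) of the measured members of the 27 gene lists with at least 1 called member; each point is a gene, blue if called higher, brown if called lower and grey if not called, and the black bar is the list's median. Lists are ordered by median, from mitosis (−0.93) at the bottom to growth hormone and sex-biased genes (0.46) at the top, and a gene on several lists appears in each.

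Conjugation enzymes couple drugs and reactive metabolites to glutathione, glucuronate or sulfate. Of 20 measured 5 fell and 0 rose, with a median of −0.44, and the list mean did not overlap between the times. Gsta2, a glutathione transferase, measured 10.07, 10.44, 10.49, 10.71 and 10.29 at 4 d and 9.58, 8.47, 9.08, 8.97 and 9.46 at 6 d. It fell by 1.29 ± 0.27 (2.44-fold; adjusted p = 0.00273; −1.37 without 4 d replicate 1). The transferases Gstt2, Gstm2 and Gstm1 were at −0.86 ± 0.18 (adjusted p = 0.0036), −1.07 ± 0.29 (adjusted p = 0.0347) and −0.67 ± 0.17 (adjusted p = 0.0214), and Ugdh, which makes the glucuronate donor, at −0.71 ± 0.11 (adjusted p = 6.78e-05). Members of the Gstm family are near-identical and can share probes. Gstm2 lost its call in 8 and Gstm1 in 6 of 10 leave-one-out fits, but neither without 4 d replicate 1. The list count was 3 to 5 over those fits and 11 in the fit of the 10 arrays alone.

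Targets of NRF2, the antioxidant transcription factor, had 4 of 14 members lower and 0 higher (median −0.17), 2 of them, Gsta2 and Gstm1, shared with the conjugation list. Nqo1, a quinone reductase and common NRF2 readout, fell by 0.98 ± 0.24 (adjusted p = 0.0149) and lost its call without 4 d replicate 5 or 6 d replicate 5 (differences −0.89 to −0.87, adjusted p up to 0.0661); Ephx1, the microsomal epoxide hydrolase, fell by 0.48 ± 0.12 (adjusted p = 0.0119), a call lost without 6 d replicate 2 (adjusted p = 0.0807). Srxn1 and Txnrd1, antioxidant enzymes under NRF2, were at −0.015 ± 0.15 (adjusted p = 0.982) and −0.22 ± 0.15 (adjusted p = 0.599). Mean Gsta2 was 9.24 in controls, 8.55 at 2 d and 9.37 at 8 d, and its 4 d mean of 10.40 was the highest of the 10 groups.

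Of 19 drug-metabolising P450 genes 1 rose and 1 fell (median −0.12). Cyp2c55 measured 8.07, 9.05, 9.02, 9.16 and 9.24 at 4 d, with replicate 1 lowest, and 7.40, 7.16, 6.98, 7.33 and 7.10 at 6 d. It fell by 1.71 ± 0.29 (adjusted p = 0.000221; −1.92 without 4 d replicate 1), and its mean in controls was 5.84. Cyp2d10 rose by 0.38 ± 0.08 (adjusted p = 0.00249; 0.43 without 4 d replicate 1). Cyp2e1, which forms the toxic metabolite of acetaminophen, was at 0.06 ± 0.11 (adjusted p = 0.886) with levels of 13.48 and 13.54, where the signal is close to its upper limit and a difference can be understated. Cyp2c29 was at −0.31 ± 0.38 (adjusted p = 0.82).

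Bile acid genes included the risers Slco1a1 and Cyp7b1 among 16 measured, with 0 called lower (median 0.10). Cyp7a1, the rate-limiting enzyme of the classical pathway, measured 10.23, 9.92, 9.76, 10.70 and 10.57 at 4 d and 8.81, 7.61, 8.12, 8.04 and 8.87 at 6 d. All 6 d arrays were lower, but the difference of −1.95 ± 0.64 had an adjusted p = 0.103 and was not called; in the fit of the 10 arrays alone the adjusted p was 0.000864. Its SD was 1.74 at 2 d against 0.41 at 4 d and 0.54 at 6 d, and the fit of 44 arrays uses 1 spread per gene for all 9 times. Its mean had been 8.81 in controls and 3.88 at 1 d. Slco1a4, another uptake transporter, was at −1.11 ± 0.38 (adjusted p = 0.117). Pericentral genes gave 0 calls among 14 in limma, with 4 at an unadjusted p under 0.05, beside 761 of all 5976 genes. In the fit of the 10 arrays alone 3 pericentral genes were called lower and 1 higher. Oat, ornithine aminotransferase, was at 0.25 ± 0.34 (adjusted p = 0.84). Among 9 periportal genes Apoa4 was the only call.

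Genes tied to the body clock had 3 of 12 members lower and 0 higher (median −0.09). Wee1, a clock-driven kinase that holds cells before mitosis, measured 7.19, 7.82, 7.20, 7.77 and 7.44 at 4 d and 6.24, 5.70, 5.85, 6.33 and 6.15 at 6 d, with no overlap. It fell by 1.43 ± 0.22 (2.7-fold; adjusted p = 5.43e-05; −1.51 without 4 d replicate 1). Per3, a period gene, measured 5.57, 6.41, 6.88, 7.39 and 6.95 at 4 d and 4.84, 4.78, 5.18, 5.48 and 5.73 at 6 d. The 6 d replicate 5 lay above 4 d replicate 1, the lowest 4 d array. Its difference was −1.44 ± 0.25 (adjusted p = 0.000221), −1.71 without 4 d replicate 1 and −0.80 as the mean of its probe sets.

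Usp2, a deubiquitinase with a daily rhythm, was at −1.31 ± 0.30 (adjusted p = 0.00762) and −1.62 without 4 d replicate 1. Dbp, a transcription factor with one of the strongest daily rhythms in liver, measured 5.72, 9.01, 9.09, 9.43 and 8.72 at 4 d and 5.94, 6.74, 8.68, 7.92 and 8.16 at 6 d. Replicate 1 stood about 3 log2 units under the other 4 d arrays, and the 6 d arrays also ranged widely. The difference of Dbp was −0.90 ± 0.67 (adjusted p = 0.623) and −1.57 (adjusted p = 0.277) without 4 d replicate 1. The mean of the 12 genes was 6.90 on 4 d replicate 1 and 7.38 to 7.64 on the other 4 d arrays, against 6.73 to 7.19 at 6 d. Per2 was at −0.88 ± 0.29 (adjusted p = 0.115), and Clock at 0.51 ± 0.23 (adjusted p = 0.305).

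**Figure D5:**
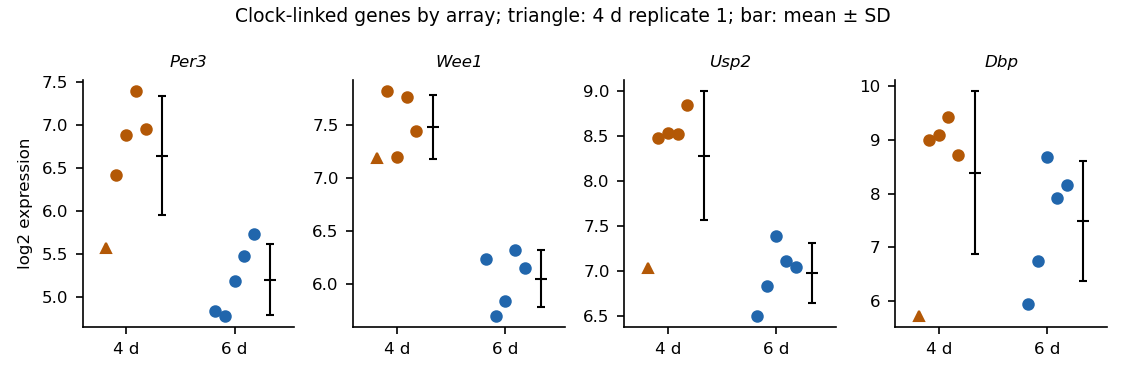
Log2 expression of 4 clock-linked genes on each array of 4 d (brown) and 6 d (blue), each panel with its own y axis; the triangle is 4 d replicate 1 and the black bar the mean ± SD of 5 arrays. Replicate 1 is the lowest 4 d array for all 4 genes, at 5.72 for Dbp, although for Wee1 it is close to replicate 3 (7.19 against 7.20). Wee1 does not overlap between the times.

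Few genes were called in the remaining lists. Cela1, an elastase best known from pancreas, measured 8.53, 8.13, 8.36, 8.52 and 8.08 at 4 d and 9.60, 9.29, 9.23, 8.94 and 9.36 at 6 d and rose by 0.96 ± 0.22 (adjusted p = 0.00603; 1.01 without 4 d replicate 1). The other 10 measured markers of neighbouring tissues, among them the pancreatic enzymes Prss2 (−0.076 ± 0.10), Cel (0.033 ± 0.11) and Clps (0.048 ± 0.16), were not called (adjusted p = 0.84, 0.943 and 0.942), and the list's mean was 5.19 to 5.43 at 4 d and 5.36 to 5.45 at 6 d. In oxidative phosphorylation 1 of 43 genes fell, the cytochrome oxidase subunit Cox7a1 (−0.78 ± 0.19, adjusted p = 0.0141), and 33 differences were positive with a median of 0.06. Cox7a1 lost its call without 4 d replicate 1 (adjusted p = 0.0948) and without 6 d replicate 1. In ribosome biogenesis 1 of 19 rose, Nop10 of the box H/ACA particles (0.41 ± 0.11, adjusted p = 0.0365), a call lost in 8 of 10 leave-one-out fits. Over all 5976 genes, 2.71% were called and 761 had an unadjusted p under 0.05. In all, 23 of the 50 lists had 0 calls in limma, with 37 of their 324 genes at an unadjusted p under 0.05. Among the larger of these were 31 cytosolic ribosomal protein, 30 chemokine and cytokine, 25 regeneration growth factor and receptor, 20 immediate early, 19 endothelial, 19 proteasome, 19 glycolysis and hypoxia, 17 amino acid catabolism, 14 heat shock and 13 hepatocyte transcription factor genes. The lists of lipid droplets, gluconeogenesis, p53 targets, antigen presentation, metallothioneins and iron, aminoacyl-tRNA synthetases, basement membrane and red blood cells also had no call. Igfbp1, Hamp, G6pc and Mt1, followed through all times, were at −0.34 ± 0.48, −0.10 ± 0.17, 0.59 ± 0.43 and −0.22 ± 0.54, with adjusted p = 0.849, 0.885, 0.607 and 0.918. Krt8, a hepatocyte keratin, was lower on all 6 d arrays at −0.38 ± 0.21 without being called (adjusted p = 0.47).

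Among the 8137 probe sets used, 33 called genes had 39 further ones. Of these, 38 had the same direction and 18 were also called, and 0 were called in the opposite direction; the exception in direction was Snrpd3 (0.40, against −0.18 on its further probe set). For genes changed at least 2-fold, 16 of 16 had the same direction and 11 were also called. Among those not called, the further probe sets of Mcm3, Nusap1 and Per3 gave only −0.15, −0.17 and −0.16. Of the 41 named genes that changed at least 2-fold, 35 were also called without 4 d replicate 1.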

How the data were processed

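Liver RNA had been hybridised to Affymetrix Mouse Genome 430 2.0 arrays. The authors deposited log2 expression values; per the submitters' processing notes these came from oligo 1.52.0 and RMA, a method that makes 1 value per probe set after background correction and quantile normalization. In the table used here, 24 of the 49 arrays, among them arrays of both times, have values in the first rows only, so probe sets were kept where all 49 had a value. Of these 7370 had 1 gene symbol, 223 several and 544 none listed. A gene with more than 1 probe set was read from its brightest probe set (mean of 49 arrays). With limma 3.58.1 in R 4.3.3, 1 mean per group was fitted to the 44 treated arrays (35 residual degrees of freedom), and 6 d minus 4 d was tested over 5976 genes, with calls at 0.05 after Benjamini-Hochberg adjustment. The scripts were tested on simulated data.

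The named genes were the 12 largest called rises and falls with no overlap between arrays, up to 3 called members of each list and a panel followed through the series; further members and genes named were chosen after their values were seen. Members and lists were chosen with earlier results of these data known. Alternatives covered the arrays fitted, a replicate block, probe set choice, dim genes, scaling, variance model, array weights and leaving out each array. Arrays carry no read depth; 5 a group limit the precision.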

Additional observations from a re-analysis of the deposited data

Results flagged for a closer look

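Of 186 gene and time groups of 5 arrays examined, 14 had an array far from the others, its gap to the nearest array being more than 0.71 of the group's range (chance gives about 1 in 20 groups). Of these 8 were at 4 d and 6 at 6 d, and 6 were 4 d replicate 1.

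In 4 d replicate 1 the levels of Dbp (5.72 against 8.72 for the nearest array, gap 0.8092 of the range), Cyp2c55 (8.07 against 9.02, 0.8091) and Usp2 (7.03 against 8.48, 0.798) were low. The same array was high for Cdkn1a (8.45 against 7.42, 0.7696), Acss2 (12.29 against 11.70, 0.7418) and Apoa4 (11.72 against 11.10, 0.7377). At 4 d, Vnn1 was low on replicate 2 (6.93 against 7.69, 0.7741) and Cpe on replicate 3 (7.14 against 7.98, 0.7342).

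At 6 d, replicate 4 was high for Mcm5 (5.07 against 4.48, 0.8881), Ctsb (11.82 against 11.62, 0.7503), D17H6S56E-5 (7.69 against 5.99, 0.7481), Vnn1 (8.57 against 7.18, 0.745) and Cdc20 (7.22 against 5.58, 0.7114). Mt1, a metallothionein, was high on 6 d replicate 2 (13.38 against 11.78, 0.711).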

How the results depend on the processing

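Main counts were 162 genes called, 62 higher and 100 lower, and none of the 162 turned sign under any alternative in which it was tested. The fit of the 10 arrays alone called 379 (171 higher, 208 lower), and limma's array weights 593 (311 and 282). Median centring gave 105 higher and quantile normalization 99 higher. Leaving out each array gave 105 to 155 called, 35 to 57 higher and 69 to 99 lower; fewest were called without 6 d replicate 2, and the count higher was 41, 35, 36 and 37 without 4 d replicate 2 or 3 and without 6 d replicate 2 or 3. The other settings (all 49 arrays, mean or unmarked probe sets, dim genes out, trend and robust variance, ribosomal centring) called 120 to 187. Scalings moved the median of all genes to between 0.014 and 0.048. Arrays of equal replicate number had correlations of 0.162, −0.00589, 0.0915, −0.0519 and −0.0838 for numbers 1 to 5, and 2 of 5 were best with their own number. So few values cannot settle whether the numbers pair arrays. The replicate block called 175, 157 of them shared with the main fit. Chosen after seeing the data, the block on the 10 arrays alone called 249 with 166 lower, and these arrays without 4 d replicate 1 called 467 (259 and 208). Of 69 named called genes 46 were still called without 4 d replicate 1. Genes not called that turned sign were Cdkn1a (−0.0331 with quantile normalization; −0.169 to 0.27 over the fits without 1 array), Lpl (−0.000985 with quantile normalization, −0.0049 with ribosomal centring; −0.144 to 0.197 without 1 array), Acta2 (0.0265 without 4 d replicate 1, in both fits; −0.248 to 0.0265), Igfbp1 (−0.613 to 0.217) and Hamp (−0.177 to 0.0875). The cause was not tested. Values under 3.24 or near 14.39 can understate a difference.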

Other observations

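Among the called genes without a description so far, the following were chosen after their values were seen. Aadat, an aminotransferase of lysine and kynurenine breakdown, measured 9.48, 9.74, 9.23, 9.60 and 9.50 at 4 d and 10.42, 10.44, 10.77, 9.93 and 10.38 at 6 d. The times did not overlap, and Aadat rose by 0.88 ± 0.15 (adjusted p = 0.000164). Hao1, the glycolate oxidase of hepatocyte peroxisomes, rose from 10.88 to 11.44, a difference of 0.55 ± 0.13 (adjusted p = 0.0092). Hsd17b2, which inactivates sex steroids, rose by 0.65 ± 0.14 (adjusted p = 0.00336). Nox4, an oxidase that makes hydrogen peroxide, rose by 0.75 ± 0.19 (adjusted p = 0.0238) and Sdc4, a heparan sulfate proteoglycan, by 0.67 ± 0.14 (adjusted p = 0.00249), while Sdc1 of the same family changed by −0.58 ± 0.14 (adjusted p = 0.0119). Leaving out 1 array ended the call of Nox4 in 3 of 10 fits (adjusted p up to 0.136) and of Sdc1 in 2 (up to 0.0654). Mug1, a plasma protease inhibitor, rose by 0.43 ± 0.07 (adjusted p = 0.000206).

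Among falling genes, Ptgr1, a reductase that inactivates prostaglandins and reactive aldehydes, measured 9.01, 7.85, 8.60, 8.27 and 8.39 at 4 d and 6.89, 6.80, 6.31, 6.99 and 6.65 at 6 d. Its arrays did not overlap, and the difference was −1.70 ± 0.25 (adjusted p = 3.09e-05). Abcb1a, a drug efflux pump, measured 5.52, 5.38, 5.61, 5.42 and 5.95 at 4 d and 3.84, 3.73, 3.95, 4.18 and 4.08 at 6 d. It also fell with no overlap, by a difference of −1.62 ± 0.23 (adjusted p = 1.32e-05). Golm1, a Golgi membrane protein that injured hepatocytes make, changed by −0.99 ± 0.20 (adjusted p = 0.00145), and Nampt, which makes the NAD precursor, by −0.92 ± 0.20 (adjusted p = 0.00412). Mfge8, a bridge between dying cells and phagocytes, changed by −1.04 ± 0.18 (adjusted p = 0.000221), and Clec7a, a receptor of myeloid cells for fungal glucans, by −1.37 ± 0.32 (adjusted p = 0.008). Ncapg2, a condensin subunit of dividing cells, changed by −1.26 ± 0.24 (adjusted p = 0.000667).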
